A study of Arabidopsis thaliana with 7 samples.

Results

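The genes described here are 9 members of an Arabidopsis thaliana module that joins plant-specific glutaredoxins of the ROXY group, bZIP transcription factors of the TGA group, and ankyrin-repeat cofactors of the NPR1 type. They are ROXY1 (probe set AT3G02000_at), ROXY2 (AT5G14070_at), PAN (AT1G68640_at), TGA9 (AT1G08320_at), TGA10 (AT5G06839_at), BOP1 (AT3G57130_at), BOP2 (AT2G41370_at), NPR1 (AT1G64280_at) and NIMIN1 (AT1G02450_at). They were selected by probe set identifier from the 27826 probe sets of the array, and all 9 were measured, each by 1 probe set. The members were chosen by family from earlier results on these arrays, with the differences between the genotypes known. Their differences below are therefore a description, with no test, and support nothing by themselves. By their locus names ROXY1 and BOP1 lie on chromosome 3, BOP2 on chromosome 2, ROXY2 and TGA10 on chromosome 5 and the other 4 on chromosome 1. The genome build behind the probe sets is not given in the sources used here, so no positions are printed.

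Each array was hybridised with biotin-labelled cDNA from about 40 to 50 embryos of the 8-cell stage, and there were 4 wild-type arrays and 3 arrays of a mutant labelled Bodenlos (IAA12). Both groups are of the Columbia (Col-0) ecotype and no treatment separates them. Bodenlos, here bdl, is known as a dominant allele whose product resists auxin-triggered breakdown and keeps the auxin response factor MONOPTEROS repressed. The labels give neither the allele, the zygosity nor any promoter behind the mutant protein, and the growth protocol speaks of antibiotic selection of transgenic seeds without saying which embryos it concerns. The series' design text names 3 replicates per genotype, and all 4 wild-type arrays were used. Nothing in the labels says that replicates came from separate harvests, so the errors below measure only the spread between these samples. The embryos were pooled whole, so fewer cells that express a gene and less RNA per cell cannot be told apart.

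ROXY proteins are small CC-type glutaredoxins that bind TGA factors in the nucleus, and in the flower ROXY1 and the TGA factor PAN are known to act on petal and floral organ number. TGA factors bind promoter elements with the core TGACG and work with cofactors. NPR1, a salicylic acid sensor, is the cofactor in the defence response, and BOP1 and BOP2 are the NPR1 relatives that pattern leaves, flowers and organ boundaries. NIMIN1 is a small protein that binds NPR1 and dampens its output at defence genes. These roles are known mostly from leaves, inflorescences and infected plants.

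In bdl embryos 1 glutaredoxin was lower, 1 TGA factor was higher and the NPR1-binding protein was higher, while the remaining members had log2 differences of -0.08 to 0.37. The log2 differences, bdl minus wild type, were -3.71 for ROXY1, 2.63 for PAN and 4.96 for NIMIN1. For ROXY1 in bdl and NIMIN1 in wild type the dim side is not known to exceed background, so a linear fold would depend on that background and none is given. Genes count as called where a limma fit across all probe sets gives an adjusted p under 0.05. By that rule 3 of the 9 members were called, 2 higher and 1 lower. Of all probe sets 1.76% were called, 0.902% higher and 0.859% lower. Wild-type and bdl arrays were fully separated for the same 3 members, as they were for 11.2% of all probe sets. Because this contrast was in view when the members were chosen, nothing is read from these shares. The median log2 difference over the 9 members was 0.07, against -0.01 over all probe sets.

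**Figure D1:**
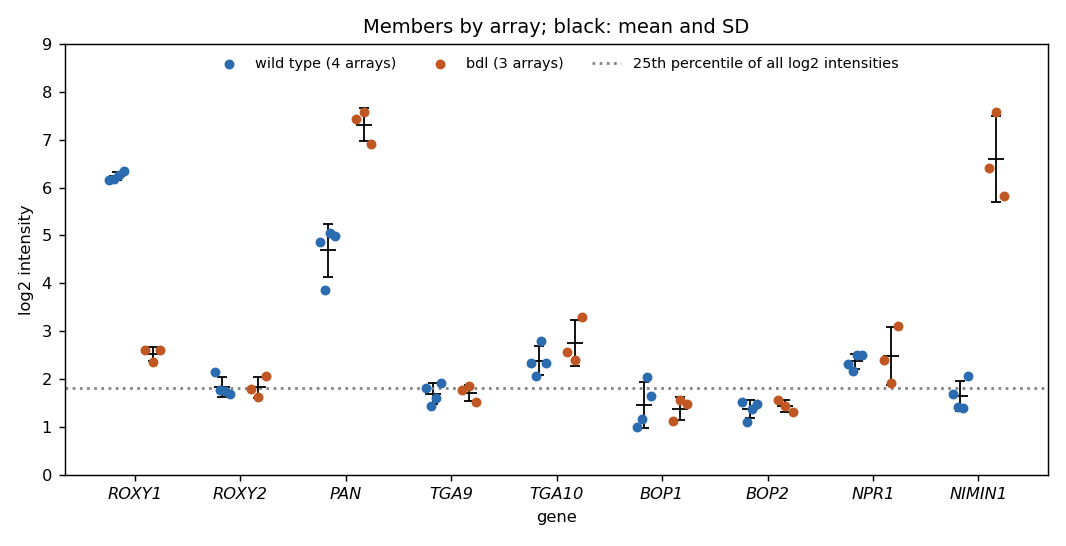
Log2 intensity (vertical axis) of the 9 members on each array, 4 of wild type in blue and 3 of bdl in orange, with black bars for the mean and SD and a dotted line at the 25th percentile of all log2 intensities, 1.81. ROXY1 lies at 6.16 to 6.35 on the wild-type arrays and at 2.36 to 2.61 on the bdl arrays, PAN and NIMIN1 lie higher in bdl, and the arrays of the other 6 members overlap.

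Among the glutaredoxins, ROXY1 had log2 intensities of 6.16, 6.19, 6.26 and 6.35 in wild-type arrays 1 to 4 and of 2.61, 2.36 and 2.61 in bdl arrays 1 to 3. The lowest wild-type array thus stood 3.54 above the highest bdl array on the log2 scale, and the arrays within each genotype lay close together. The mean was 6.24 ± 0.087 (SD, n = 4) in wild type and 2.53 ± 0.15 (SD, n = 3) in bdl. The log2 difference, bdl minus wild type, was -3.71 ± 0.17 (SE), with a 95% interval of -4.10 to -3.32. As geometric mean intensity this was 75.5 against 5.77. The bdl level lies between the 25th percentile and the median of all log2 intensities, 1.81 and 3.16. No detection calls were used here, so it is not known to exceed background.

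ROXY2, the paralogue that acts together with ROXY1 in anther development, showed no such difference. Its log2 intensities were 2.15, 1.77, 1.76 and 1.68 in wild type and 1.79, 1.63 and 2.06 in bdl. The genotypes overlapped throughout, with a log2 difference of -0.01 ± 0.20 (SE) and a 95% interval of -0.48 to 0.45. The signal was near the 25th percentile of the array in both genotypes, so a difference could be missed.

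Among the TGA factors, PAN (also TGA8) had log2 intensities of 4.86, 3.86, 5.05 and 4.98 in wild type and 7.44, 7.59 and 6.92 in bdl. All bdl arrays lay at least 1.87 above the highest wild-type array, and wild-type array 2 stood about 1 log2 unit below the other wild-type arrays. The log2 difference was 2.63 ± 0.33 (SE; 95% interval 1.87 to 3.39), and the geometric mean intensities were 25.8 and 159. Without wild-type array 2 the log2 difference was 2.35. On the 4 arrays with the lowest pollen marker signal (wild type 1 and 3, bdl 1 and 3), a setting chosen after seeing the data, it was 2.23 and PAN was no longer called. With so few arrays 105 of all probe sets were called, against 490 on all 7, so the lost call does not single out pollen.

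TGA9 and TGA10, which act redundantly in anthers and bind ROXY1 and ROXY2, overlapped between genotypes. TGA9 had log2 intensities of 1.81, 1.43, 1.60 and 1.92 in wild type and 1.76, 1.85 and 1.51 in bdl, a log2 difference of 0.02 (95% interval -0.44 to 0.47). TGA10 had 2.33, 2.07, 2.80 and 2.34 in wild type and 2.57, 2.39 and 3.30 in bdl, a log2 difference of 0.37 (95% interval -0.27 to 1.01). The highest TGA10 value belonged to bdl array 3, and without that array the log2 difference was 0.10. TGA9 lay under the 25th percentile of the array in both genotypes.

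The BLADE ON PETIOLE genes were dim in every group. BOP1 had log2 intensities of 0.99, 1.16, 2.04 and 1.65 in wild type and 1.11, 1.57 and 1.47 in bdl, a log2 difference of -0.08 (95% interval -0.74 to 0.58). BOP2 had 1.52, 1.10, 1.37 and 1.48 in wild type and 1.56, 1.44 and 1.31 in bdl, a log2 difference of 0.07 (95% interval -0.36 to 0.49). Both means lay under the 25th percentile of all log2 intensities in both genotypes. These arrays therefore do not show expression of either gene in embryos of this stage, and a difference between the genotypes could be missed.

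NPR1 itself had log2 intensities of 2.32, 2.17, 2.49 and 2.50 in wild type and 2.40, 1.91 and 3.12 in bdl. The bdl arrays spread on both sides of the wild-type range, and the log2 difference was 0.10 ± 0.29 (SE; 95% interval -0.56 to 0.77). Without bdl array 3 it was -0.22, and without bdl array 2 it was 0.39, so its sign rests on single arrays.

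NIMIN1 had log2 intensities of 1.69, 1.42, 1.40 and 2.06 in wild type and 6.40, 7.58 and 5.82 in bdl. The wild-type mean, 1.64 ± 0.31 (SD, n = 4), lay under the 25th percentile of all log2 intensities, and the bdl mean was 6.60 ± 0.90 (SD, n = 3). The lowest bdl array stood 3.75 above the highest wild-type array. The log2 difference was 4.96 ± 0.40 (SE; 95% interval 4.03 to 5.89), and the geometric mean intensities were 3.12, not known to exceed background, and 97.0. The range over the bdl arrays, 1.77 on the log2 scale, was the widest of any member in either genotype. Bdl array 2, the highest for NIMIN1, was also the highest bdl array for pollen markers (list mean 4.37, against 2.07 and 1.82 in bdl arrays 1 and 3). Wild-type arrays 4 and 2 had pollen list means of 5.82 and 3.83, with NIMIN1 at 2.06 and 1.42. The log2 difference was 4.47 without bdl array 2 and 4.56 on the 4 arrays with the lowest pollen marker signal, and NIMIN1 was called in both settings.

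**Figure D2:**
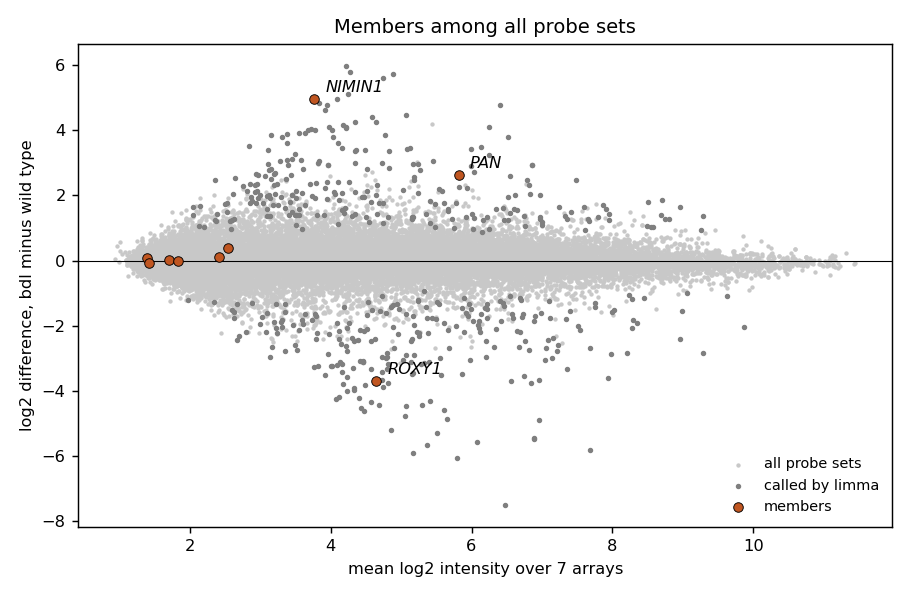
Log2 difference, bdl minus wild type (vertical axis), against the mean log2 intensity over 7 arrays (horizontal axis) for all 27826 probe sets in light grey, those called by limma in dark grey and the 9 members in orange. NIMIN1 (4.96), PAN (2.63) and ROXY1 (-3.71) stand away from 0, and the other 6 members lie between -0.08 and 0.37 at the dim end of the array.

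Neighbours of the called members were read for comparison. Of the 12 probe sets that are next or next but one to ROXY1, PAN or NIMIN1 in locus order, none was called by limma. Of all probe sets 1.76% were called, so no call among 12 is the usual outcome. The log2 differences of the 12 ran from -0.42 to 0.27. For NIMIN1 these included the adjacent ARFD1A (-0.17) and AT1G02460 (0.15), and for ROXY1 the adjacent ACR6 (-0.09) and AT3G02010 (0.06). None of the 9 members had values identical to those of another probe set.

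Profiles most like those of the 3 called members were sought over all probe sets as the smallest root mean square difference (RMS) between log2 profiles over 7 arrays, each centred on its own mean. For ROXY1 the nearest were ACI1 (RMS 0.27), which encodes an ALC-interacting protein also named TRM29, the ROP GTPase gene ROP9 (0.30) and AT5G12900 (0.33). For PAN they were the glutathione transferase gene GSTU20 (0.20), SIP1 (0.30), whose synonym is raffinose synthase 1, and AtS40-3 (0.31). GSTU20 had log2 intensities of 4.28, 3.36, 4.30 and 4.40 in wild type and of 6.37 or more in bdl, and wild-type array 2 was its lowest, as for PAN.

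For NIMIN1 the nearest profile was that of DPA4 (RMS 0.19), a gene known for repressing CUC boundary genes, followed by NAC046 (0.42), a NAC-domain gene, and the cysteine proteinase gene CP1 (0.46). DPA4 had log2 intensities of 1.67 to 2.68 in wild type and 6.96, 8.32 and 6.18 in bdl. Its array order within bdl was that of NIMIN1, highest in array 2 and lowest in array 3. Because both were chosen by their values on these 7 arrays, likeness here is a description of the arrays.

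**Figure D3:**
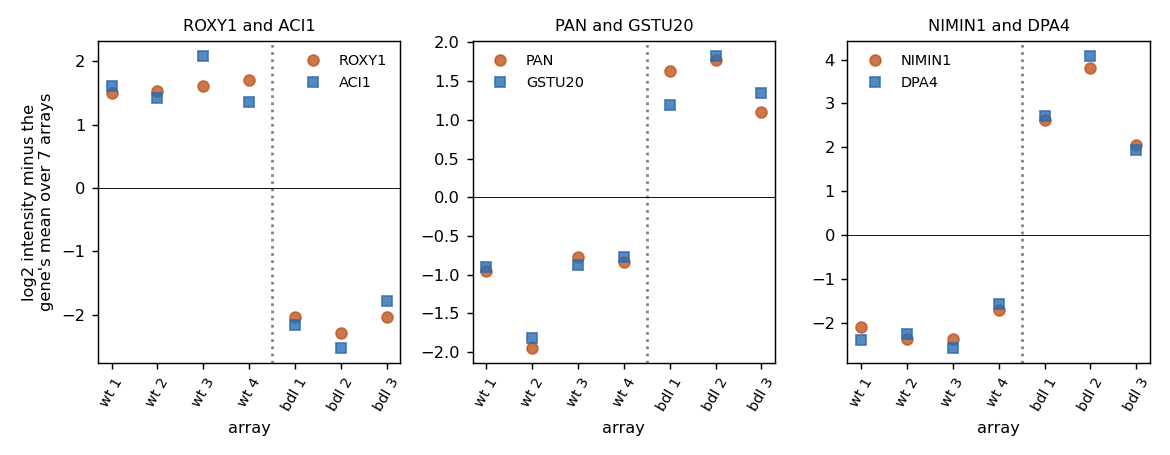
Log2 intensity minus the gene's own mean over 7 arrays (vertical axis) by array for each called member (orange circles) and the probe set with the most similar profile (blue squares). NIMIN1 and DPA4 have the same order of arrays within bdl (RMS 0.19), PAN and GSTU20 share the low wild-type array 2 (RMS 0.20), and ROXY1 and ACI1 lie apart by an RMS of 0.27.

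The rest of the module was followed in 8 lists of 80 related genes, written from general knowledge. Over all of them 1 gene was called by limma across all probe sets, 1.25% of the 80, against 1.76% of all probe sets. An unadjusted p under 0.05 was found for 12 of the 80, and for 10.7% of all probe sets (2978 of 27826), the share against which the counts of unadjusted p below are to be read. The median log2 difference was 0.05. The lists were chosen with earlier results known, so their counts are no independent support.

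The called gene was AT5G11930, 1 of 19 loci entered as other CC-type glutaredoxins. Its log2 intensities were 1.56, 1.78, 2.04 and 2.49 in wild type and 7.15, 6.78 and 6.79 in bdl. The genotypes stood far apart, and the log2 difference was 4.94 ± 0.26 (SE; 4 against 3 arrays; limma, adjusted p = 9.9e-05). Its wild-type mean, 1.97, was near the 25th percentile of all log2 intensities and is not known to exceed background. The RefSeq table used for names gives a glutaredoxin name for 2 of these 19 loci, GRX480 and GRXS13, and AT5G11930 is not among them. The other 18 did not pass, with log2 differences of -0.79 to 0.62 and a list median of -0.03, and 11 of the 19 lay under the 25th percentile of the array in both genotypes. GRX480, a glutaredoxin of the salicylic acid response also named ROXY19, had a log2 difference of -0.09. Of 10 glutaredoxins of the CPYC and CGFS classes, none was called by limma and 1 had an unadjusted p under 0.05. In that list GRX4 had the smallest p (log2 difference -0.62 ± 0.20, SE; adjusted p = 0.254), followed by CXIP2 (0.79 ± 0.35, SE; adjusted p = 0.481).

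None of the 7 other TGA factors, TGA1 to TGA7, was called by limma, and 1 had an unadjusted p under 0.05. TGA2, which recruits NPR1 to defence promoters, had log2 intensities of 3.34, 2.93, 3.16 and 3.29 in wild type and 1.63, 2.79 and 2.74 in bdl. The genotypes did not overlap, but bdl array 1 lay well below the other bdl arrays, and the log2 difference was -0.79 ± 0.31 (SE; limma, adjusted p = 0.397). TGA6, which acts redundantly with TGA2, had -0.44 ± 0.22 (SE; adjusted p = 0.546). The list median was -0.10.

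All 8 genes of the list of other NPR, NIMIN and CUL3 genes had positive log2 differences, from 0.02 to 2.31 with a median of 0.78, whereas 13428 of all 27826 probe sets were positive. None of the 8 was called by limma, and 3 had an unadjusted p under 0.05. NIMIN2, another NPR1-binding protein, had log2 intensities of 3.51, 3.51, 2.56 and 4.54 in wild type and 7.10, 5.36 and 5.07 in bdl. Every bdl array lay above every wild-type array, but both genotypes spread widely, and the log2 difference of 2.31 ± 0.59 (SE) did not pass (limma, adjusted p = 0.132). Unlike NIMIN1, which was highest in bdl array 2, NIMIN2 was highest in bdl array 1. NPR3, a salicylic acid receptor that opposes NPR1, had 2.60, 3.19, 3.02 and 3.76 in wild type and 4.03, 4.16 and 3.92 in bdl. Its log2 difference was 0.89 ± 0.28 (SE; adjusted p = 0.244). The locus AT4G01895, entered as a further NIMIN gene and named here after its values were seen, had 3.03, 2.52, 2.72 and 2.80 in wild type and 5.73, 2.84 and 4.59 in bdl. Its bdl arrays ranged from wild-type level in array 2 to well above it, with a log2 difference of 1.62 ± 0.59 (SE; limma, adjusted p = 0.348). Without bdl array 2 it was called, at 2.39 (adjusted p = 0.0293; adjusted p of 0.0293 to 0.639 over its alternatives).

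**Figure D4:**
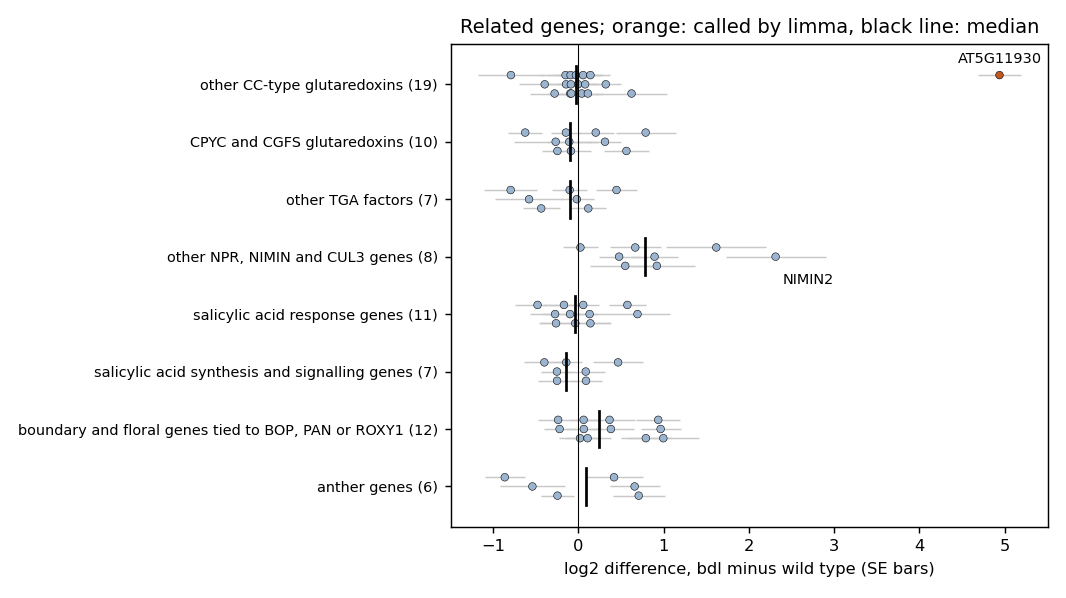
Log2 difference, bdl minus wild type, with SE bars (horizontal axis) for the 80 genes of 8 related lists, the number of genes in brackets, orange where called by limma and with a black line at each list's median. AT5G11930 at 4.94 is the 1 called gene, and the list of other NPR, NIMIN and CUL3 genes has its 8 points at or above 0.02.

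No call was found in the lists of salicylic acid response genes and of salicylic acid synthesis and signalling genes. These lists do not include NIMIN1 or NIMIN2. Of 11 salicylic acid response genes none was called by limma, 1 had an unadjusted p under 0.05 and the median log2 difference was -0.04. PR1, the standard readout of NPR1 activity, had 1.37, 1.47, 1.58 and 1.51 in wild type and 1.73, 1.31 and 1.58 in bdl, and these ranges overlapped at dim signal. WRKY70, a regulator of the salicylic acid response, had a log2 difference of 0.57 ± 0.22 (SE; adjusted p = 0.381) and WRKY60, a related WRKY factor, -0.48 ± 0.26 (SE; adjusted p = 0.594). Of the 11 genes 10 lay under the median log2 intensity of the array in both genotypes, where a difference could be missed. Of 7 genes of salicylic acid synthesis and signalling none was called by limma and none had an unadjusted p under 0.05. All 7 lay under the median log2 intensity of the array in both genotypes, so here too a difference could be missed. The genes of smallest p were CBP60G, a transcription factor for salicylic acid synthesis (-0.40 ± 0.24, SE), and ICS1, the synthesis enzyme (0.47 ± 0.30, SE), with adjusted p = 0.646 and 0.669.

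Among 12 boundary and floral regulators tied to BOP, PAN or ROXY1, none was called by limma and the median log2 difference was 0.24. An unadjusted p under 0.05 was found for 4 of them, and for 10.7% of all probe sets. Of the 12, 10 had a positive log2 difference, against 13428 of all 27826 probe sets. Signal lay under the median log2 intensity of the array in both genotypes for 10 of the 12. AS1, a MYB gene of leaf primordia, had 4.46, 4.92, 4.76 and 4.78 in wild type and 5.27, 6.05 and 5.76 in bdl. Its log2 difference was 0.96 ± 0.23 (SE; limma, adjusted p = 0.116). PNF, a BELL homeodomain gene, had 0.94 ± 0.26 (SE; adjusted p = 0.173). In both, every bdl array lay above every wild-type array. AG, the floral gene that PAN activates, had a log2 difference of 0.37 with overlapping arrays. Of 6 anther genes none was called by limma and 1 had an unadjusted p under 0.05. TPD1, the peptide ligand of anther cell specification, had -0.86 ± 0.24 (SE; adjusted p = 0.168), and EMS1, its receptor kinase, 0.71 ± 0.31 (SE; adjusted p = 0.468).

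Tissue markers were read beside these values, and their part in the results was not tested. The values above without an array leave out all that sets that array apart, so they do not single out a tissue. Probe sets differ in brightness, so the signals named here rank no transcripts. The 8 early embryo markers were bright on all arrays, with list means from 8.33 to 8.64 over wild type and from 8.002 to 8.15 over bdl. WOX2, an embryo homeodomain gene, was at 9.82 or more on every array. The 1 called gene of that list was DRN, an AP2-type regulator of the apical embryo (log2 difference -1.99 ± 0.25, SE; limma, adjusted p = 0.00657). On the 4 arrays with the lowest pollen marker signal DRN was not called (-1.66; adjusted p = 0.155; 0.00345 to 0.155 over its alternatives). Of the 8 genes 1 had a positive log2 difference, against 13428 of all 27826 probe sets. In the same list 3 of the 8 genes, DRN among them, had both an unadjusted p under 0.05 (10.7% of all probe sets) and separate genotypes (11.2% of all probe sets). The others were WOX9, a homeodomain gene of the early embryo (-0.82 ± 0.18, SE; limma, adjusted p = 0.088), and LEC1, a regulator of embryo identity (0.68 ± 0.21, SE; adjusted p = 0.227). Endosperm list means ran from 2.38 to 2.71 over the wild-type arrays and from 2.23 to 2.51 over the bdl arrays, with SUC5 brightest and IKU2 the dimmest of the 8. Seed coat list means reached from 3.08 to 3.93 over wild type and from 2.28 to 3.42 over bdl, where array 3 was lowest. TT4 was the brightest of the 9 seed coat genes and TT16 the dimmest. Of all probe sets 11.2% had separate genotypes. The genotypes were separate for 3 of the 9, STK, an ovule identity gene (log2 difference -1.72 ± 0.42, SE; limma, adjusted p = 0.118), TT2, a MYB regulator of tannin synthesis (-1.40 ± 0.48, SE; adjusted p = 0.301), and TT1, a zinc finger gene of the seed coat (0.77 ± 0.22, SE; adjusted p = 0.186). Wild-type array 2, where PAN was lowest, had the highest seed coat mean. Pollen list means ran from 1.97 to 5.82 in wild type and from 1.82 to 4.37 in bdl, high in wild-type arrays 2 and 4 and bdl array 2, with VGD1 brightest and PPME1 dimmest of the 8. In green tissue genes the list mean was at most 3.402 on a wild-type array and at least 3.38 on a bdl array, with RBCS1A brightest and LHCA3 dimmest, and LHCB1.3 was the 1 called gene of 6 (log2 difference 2.05 ± 0.35, SE; limma, adjusted p = 0.0281). The list as a whole did not share that difference: 3 of the 6 genes had a positive log2 difference, and the list median was 0.05. LHCB1.3 was not called without wild-type array 1, 2 or 4 or bdl array 1 or 3 (1.78 to 2.14; adjusted p = 0.0625 to 0.105), nor on the 4 arrays with the lowest pollen marker signal (2.23; adjusted p = 0.147). No endosperm, seed coat or pollen gene was called by limma, and 1, 3 and 0 had an unadjusted p under 0.05. IAA12 itself lay at 7.08 to 7.38 in the wild-type arrays and at 8.75 to 8.90 in the bdl arrays on the log2 scale, a signal that could come from the native locus or a transgene. The labels predict no IAA12 level, so these values do not check the genotype.

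**Figure D5:**
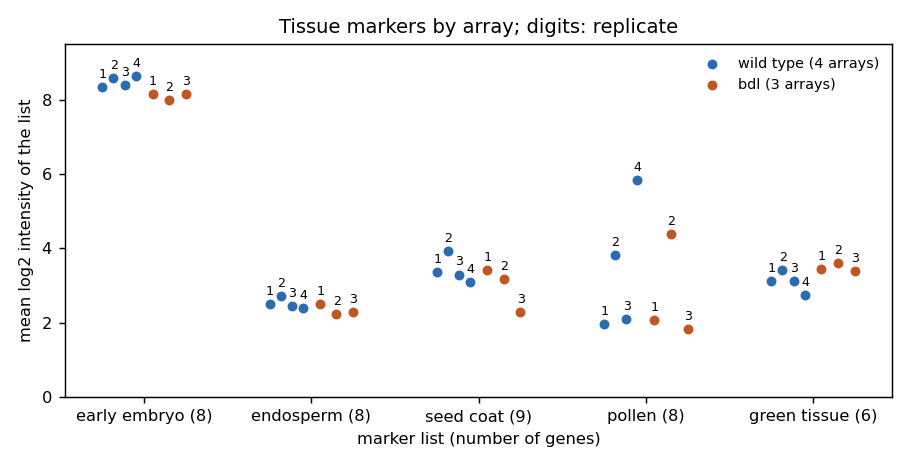
Mean log2 intensity (vertical axis) of 5 marker lists, the number of genes in brackets, on the 4 wild-type arrays in blue and the 3 bdl arrays in orange, with the replicate number beside each point. Early embryo means lie at 8.002 to 8.64, and the pollen means differ most between arrays, from 1.82 to 5.82, with wild type 4 highest and bdl 2 the highest bdl array.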

How the data were processed

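The authors deposited 1 table with an intensity value per probe set and array. The submitters' processing notes name RMA and give no version. The deposited intensity values are linear (the median of an array lay between 8.44 and 9.37), and were turned to log2 as they stood, without a pseudocount or rescaling. No scanner file or detection call was used here. Precision is limited by the number of arrays, 7.

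The genotype comparison used limma 3.58.1 (R 4.3.3; lmFit, then eBayes, 2-sided, genotype the only term, Benjamini-Hochberg over all 27826 probe sets). The fit was also run on simulated data with independent noise for each probe set. Such data lack variation that probe sets share on an array, so they cannot show how it affects the calls. The median SE was 0.27. Intervals are 95% intervals of the moderated fit. Names are from a RefSeq table of TAIR10.1, which held 27241 of the loci. Related genes named were the called ones, or the 2 of smallest p in a list with none; for each called member the 3 most similar profiles; for markers the brightest and dimmest. Other genes (GRX480, PR1, AG, LHCB1.3, STK, TT2, TT1, WOX9, LEC1, IAA12 and AT4G01895) were named after their values were seen. The members and lists were chosen with earlier results of these data known. Protein and promoter sequences planned for comparison were not used here. Alternatives covered scaling, dim-probe filters, variance model, array weights, replicate number and arrays left out. Same-numbered arrays of the genotypes deviated together little (r = 0.036 to 0.047 across genes). Figures were drawn with matplotlib 3.10.9.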

Additional observations from a re-analysis of the deposited data

Results flagged for a closer look

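In 48 checks of the 4 wild-type arrays (members, genes named by rule and marker means), 3 values stood apart from the other wild-type arrays. Chance gives about 1 in 20, so this count is near the chance share. All 3 values were low in wild type 2. PAN had a log2 intensity of 3.86 there against 4.86 to 5.05 in the others. GSTU20 had 3.36 against 4.28 to 4.40, and AtS40-3 had 1.12 against 1.37 to 1.38. The latter were picked for a profile like that of PAN, so the checks are not independent. With 3 arrays, bdl was not checked.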

How the results depend on the processing

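ROXY1 (log2 difference -3.79 to -3.59), NIMIN1 (4.47 to 5.35) and AT5G11930 (4.81 to 5.17) kept direction and call in all 16 alternatives. PAN kept its direction in all 16 (2.23 to 2.83) and lost its call in 2. With the replicate number as a block it was 2.73 and on the 4 arrays with the lowest pollen signal 2.23. The markers DRN and LHCB1.3 were not called in these 2 settings either (in the block fit -1.82 and 1.87; limma, adjusted p = 0.0701 and 0.174), and WOX9 was called with a trended, robust variance (-0.82; adjusted p = 0.00638). Same-numbered arrays deviated together little across genes (r = 0.036 to 0.047). Both arrays numbered 2 had a raised pollen list mean, 3.83 in wild type and 4.37 in bdl, as had wild type 4 (5.82). Whether the numbers mark a shared batch is not known. In that block fit 188 of all probe sets were called, against 490 in the reported fit. On the 4 arrays 105 were called. Leaving out 1 array gave 278 to 374 calls over all probe sets, and 281, 278 and 299 without bdl replicate 1, 2 and 3. It gave 3 called members each time and 1 to 2 called related genes, 2 being reached without bdl replicate 2, where AT4G01895 was called. The 6 members that were not called stayed so in every alternative in which they were tested. The filter on dim probe sets at the 25th percentile removed 4 of them and that at the 50th all 6, so these settings give no value for them. No scaling changed a call of a member. Dim signal limits ROXY2, TGA9, BOP1 and BOP2 most.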
